A study of Daucus carota with 6 samples.

Results

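The samples described here are the 3 non-transgenic carrot fleshy roots (WT, replicates 1 to 3), chosen by their genotype label out of 6 samples in the study. Carrot (Daucus carota) roots with and without an introduced betanin pathway were sequenced, and only the non-transgenic roots are used here, as a description of what an ordinary fleshy root transcribes. All 35073 genes of the deposited table were ranked in these 3 samples. The labels give the tissue as fleshy roots and the genotype as non-transgenic; no source used here gives the variety, the age or the number of plants in a sample. Nor do the labels say whether the replicates came from separate plants, so every SD covers only the spread between these 3 samples.

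The carrot fleshy root is a storage organ. Its bulk is parenchyma that a cambium lays down on both sides, as secondary phloem outside and secondary xylem inside, with the vacuoles holding sucrose, glucose and fructose and the plastids holding carotenoids. Water channels of the vacuole membrane, enzymes of wall loosening and enzymes that split sucrose are among the gene products that such an expanding storage tissue is known to use.

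Values are FPKM (mapped fragments scaled by gene length and by library size), so levels of different genes are compared per length. The FPKM sums were 1186758, 1141946 and 1153577 in replicates 1, 2 and 3. Read depth is unknown, because the table holds no counts. A gene's share is its FPKM as a percentage of its sample's FPKM sum, and shares are given as mean ± SD (n = 3). The samples form 1 group, so nothing is tested. A sign-flip permutation over 3 samples cannot give a two-sided exact p below 0.25, and differences between genes are therefore described by whether their ranges over the 3 samples overlap and, where ranges of genes named together do, by the number of samples in which one is the higher.

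Replicate 2 stood apart from the others. Across genes of at least 1 FPKM, which are not independent replicates, log2(FPKM + 1) correlated at Pearson's r = 0.965 between replicates 1 and 2, 0.972 between 2 and 3 and 0.982 between 1 and 3. Among 12891 genes with a mean of at least 10 FPKM, 430 differed more than 2-fold between replicates 1 and 2, 273 between 2 and 3 and 98 between 1 and 3. Leaving replicate 2 out gave 19607 detected genes against 19812, a share of 20.3% for the top 100 genes against 19.9%, and 870 genes against 908 for 50% of total FPKM.

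Of all 35073 listed genes, 19812 (56.5%) reached a mean of at least 1 FPKM. Of those 19812, 18830 reached 1 FPKM in every sample, while 9268 other genes were listed at 0 in all 3. The median detected gene stood at 18.0 FPKM. Levels of at least 10 FPKM were reached by 12891 genes, at least 100 by 2143, at least 1000 by 120 and at least 10000 by 3.

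A small part of the genes held much of the transcript pool. The most abundant gene held 1.24 ± 0.188% of total FPKM, the first 10 held 6.40 ± 0.299%, the first 100 held 19.9 ± 0.744% and the first 1000 held 51.6 ± 1.19%. Ranked by mean share, 908 genes held 50% of total FPKM and 7954 held 90%. Counted within each sample, 50% was held by 855, 968 and 881 genes in replicates 1, 2 and 3, so replicate 2 was the least concentrated. The top ranks held largely the same genes, in an order that differed between samples: 8 genes were in the first 10 of every sample and 77 were in the first 100 of every sample.

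**Figure D1:**
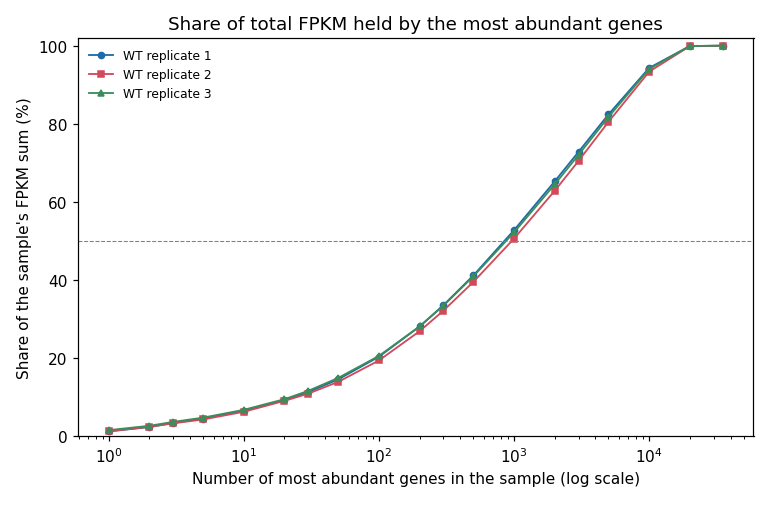
Cumulative share of a sample's FPKM sum (%, vertical axis) held by its most abundant genes (number of genes, log scale), with a line for each of the 3 WT samples and genes ranked within each sample. The curves cross 50%, the dashed line, at 855, 968 and 881 genes in replicates 1, 2 and 3.

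Part of the pool belonged to genes without an informative protein description in the UniProt and NR databases. They held 18.0 ± 0.335% of total FPKM. They made up 14 of the first 100 genes and 4832 of the 19812 detected genes. Some of them are still known by a protein domain, such as DCAR_005972, described below. Genes with numbered IDs in place of a carrot locus ID, some with a described product, held 8.71 ± 0.446%. They were 2960 of all 35073 genes.

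The 3 genes above 10000 FPKM were a metallothionein, a vacuolar water channel and a translationally controlled tumor protein. DCAR_005972, known only by its metallothionein domain, measured 13337, 13033 and 16825 FPKM in replicates 1, 2 and 3. Metallothioneins are small cysteine-rich proteins that bind metal ions. DCAR_006123, the aquaporin TIP1-1 of the vacuole membrane, measured 13450, 13315 and 11613 FPKM. DCAR_023287, the translationally controlled tumor protein homolog, a conserved protein tied to growth, measured 12484, 10206 and 12793 FPKM. The range of TIP1-1 overlapped both others: it was above the metallothionein in replicates 1 and 2, and above the tumor protein in the same 2 of 3 samples. Every metallothionein value lay above every tumor protein value, and all 3 genes lay above every value of the fourth. The fourth gene, DCAR_001565 for 40S ribosomal protein S25, measured 7547, 5208 and 7059 FPKM.

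Proteins of water stress and of the ribosome followed. Phosphoprotein ECPP44 (DCAR_009522), a dehydrin-like protein named from embryogenic carrot cells, measured 5192, 6210 and 5506 FPKM. The HIRD11-like dehydrin (DCAR_016964) measured 5650, 5034 and 4115 FPKM, and dehydrins are hydrophilic proteins that accumulate when cells lose water. Peroxidase 42 (DCAR_004218), a secreted haem peroxidase, measured 5872, 4253 and 5295 FPKM. The 3 ranges overlapped, and ECPP44 was above each of the others in replicates 2 and 3 only. The 60S protein L38 gene (DCAR_026527) measured 4218, 4758 and 4728 FPKM. Of the first 100 genes, 25 belonged to the list of ribosomal proteins.

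Defence proteins and enzymes around ubiquitin and S-adenosylmethionine filled much of the next ranks. The gene described as major allergen Api g 1 (novel322), a protein of the PR-10 class named from celery, measured 4321, 3789 and 4706 FPKM. A second PR-10 gene, DCAR_027034, measured 2691, 2754 and 2798 FPKM, with a coefficient of variation (CV, SD over mean) of 1.95%. The ubiquitin-conjugating enzymes DCAR_008537 and DCAR_011148, which pass ubiquitin on to target proteins, had means of 4123 ± 457 and 3019 ± 285 FPKM. S-adenosylmethionine synthase (DCAR_012308), which makes the main methyl donor of the cell, stood at 3628 ± 347 FPKM. S-adenosylmethionine decarboxylase (novel3489), which feeds polyamine synthesis, stood at 3097 ± 622 FPKM.

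Several of the first 30 genes differed widely among the samples. Dormancy-associated protein 1 (DCAR_003387), whose relatives mark dormant buds in pea, measured 4592, 1869 and 2811 FPKM, lowest in replicate 2. Defensin-like protein 1 (DCAR_023524), of a class of small antimicrobial proteins, measured 2553, 4581 and 3001 FPKM, highest in replicate 2. The first 30 also held pollen-specific protein C13 (DCAR_014241) at 3037 ± 460 FPKM, the heat shock cognate 70 kDa chaperone DCAR_014843 at 2315 ± 385 FPKM, a cysteine protease (DCAR_008818) at 2217 ± 307 FPKM, and 3 genes with no description at all.

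**Figure D2:**
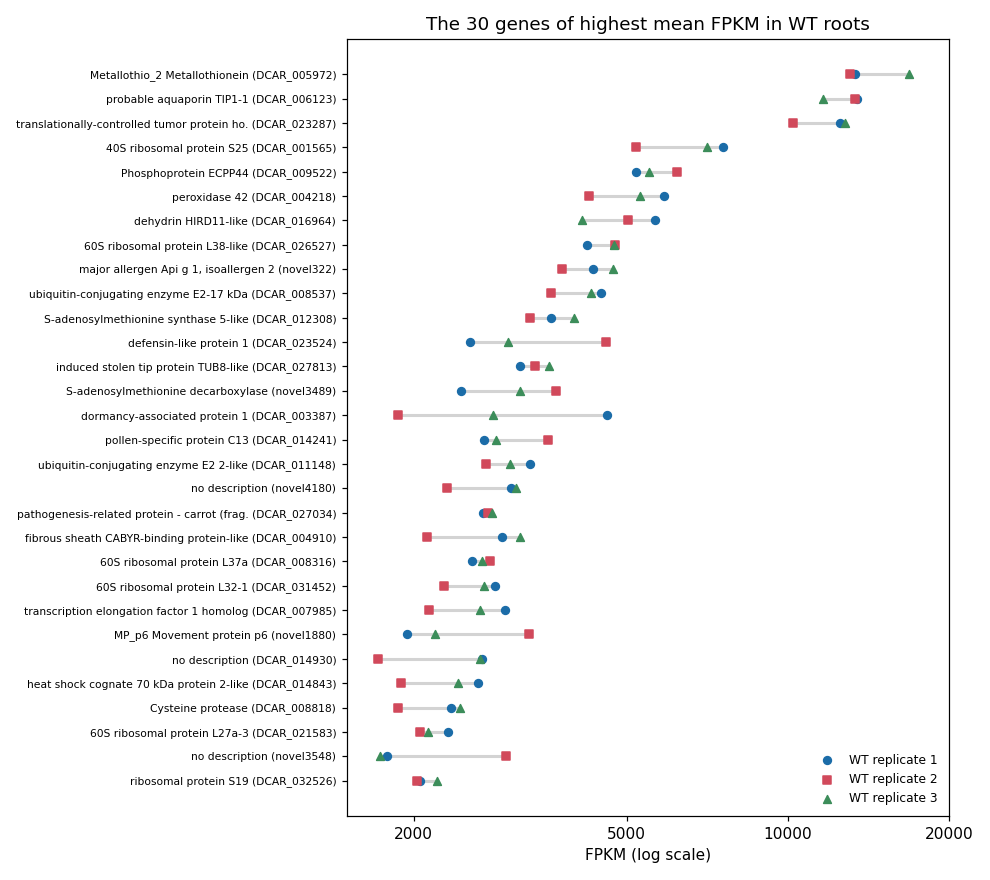
FPKM (log scale) of the 30 genes of highest mean in WT roots, with a point for each of the 3 samples and a grey line for the range. The first 3 genes lie between 10206 and 16825 FPKM, above every other gene, and dormancy-associated protein 1 spans 1869 to 4592 FPKM.

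The ribosome took the highest share of any KEGG pathway. KEGG is a public map of pathways, and 7208 genes (20.6%) carried at least 1 pathway and together held 37.1 ± 0.355% of total FPKM. A gene in several pathways counts whole in each, as 4221 genes do. The Ribosome pathway held 12.4 ± 0.0299%, with 12.4% in each sample. Of its 359 genes, 326 (90.8%) reached 1 FPKM, against 64.5% of genes with a pathway. The wide map of Metabolic pathways held 10.9 ± 0.0314% over 3255 genes, and its part Biosynthesis of secondary metabolites held 4.83 ± 0.0209%. Those maps are large and diffuse: 151 genes made up 50% of the first, led by peroxidase 42 and S-adenosylmethionine synthase.

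Protein turnover and RNA handling followed. Protein processing in the endoplasmic reticulum held 2.48 ± 0.170% and Ubiquitin mediated proteolysis 2.10 ± 0.168%, both led by the E2 enzyme DCAR_008537 and both lowest in replicate 2. The Spliceosome held 1.88 ± 0.0300%, led by 2 Hsp70 chaperones, DCAR_014843 and DCAR_020851. RNA transport held 1.57 ± 0.0110%, led by 2 genes for the translation factor SUI1, DCAR_022531 at 1185 ± 238 FPKM and novel2621 at 1034 ± 127 FPKM. Endocytosis held 1.54 ± 0.0462%, led by DCAR_014843 and an ADP ribosylation factor (DCAR_002916) at 1478 ± 441 FPKM.

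Energy, amino acid and cofactor pathways held mean shares from 1.35% to 1.80%. Oxidative phosphorylation held 1.80 ± 0.0188%, led by NADH dehydrogenase subunit genes DCAR_005307 at 1685 ± 169 FPKM and DCAR_023961 at 1114 ± 165 FPKM. Biosynthesis of amino acids held 1.71 ± 0.0210%, in which cytosolic glutamine synthetase (DCAR_003425), the enzyme that fixes ammonium, stood second at 617 ± 124 FPKM. Carbon metabolism held 1.64 ± 0.0340%, Biosynthesis of cofactors 1.56 ± 0.0283% and Cysteine and methionine metabolism 1.35 ± 0.0976%. The thiamine thiazole synthase DCAR_004198, of vitamin B1 synthesis, stood second among the cofactor genes at 1457, 1462 and 1516 FPKM. Carbon metabolism was led by catalase DCAR_013924 and by cysteine synthase DCAR_030637 at 569 ± 43.2 FPKM.

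Of the 131 pathways with at least 5 genes, 14 held more than 1%, and in 7 a single gene held over 50% of the pathway. Phenylpropanoid biosynthesis was one of these. It held 0.600 ± 0.0449% of total FPKM, 73.8% of which was peroxidase 42. Of its 293 genes, 94 (32.1%) reached 1 FPKM, against 64.5% of genes with a pathway. Photosynthesis, in an organ that grows below ground, held 0.673 ± 0.0719%, with 0.752%, 0.611% and 0.655% in replicates 1, 2 and 3. Its leading genes were photosystem II protein W (DCAR_018450) at 1309 ± 110 FPKM and a root-type ferredoxin (DCAR_012197), an electron carrier, at 718 ± 51.4 FPKM.

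**Figure D3:**
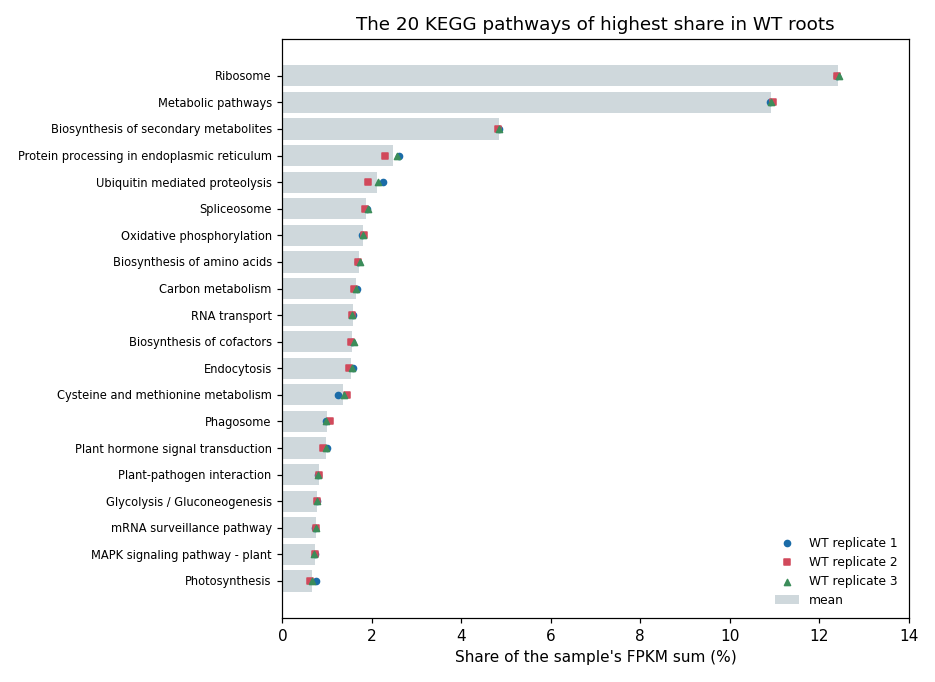
Share of the FPKM sum (%) held by the 20 KEGG pathways of highest share, with bars for the mean of 3 WT samples and points for each sample. Ribosome (12.4%) and Metabolic pathways (10.9%) stand above all other pathways, and a gene may count in several of them.

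The ribosomal protein pool was spread over many genes. The wider list of ribosomal proteins had 404 genes, 370 of them at 1 FPKM or above, and held 12.1 ± 0.0507% of total FPKM. The cytosolic proteins, 194 genes named 40S or 60S under 77 protein names, held 10.6 ± 0.0842%. Some of these gene models carry a second description, such as DCAR_013207, named both 40S protein S8 and a mitochondrial import protein. Although a ribosome holds its proteins in near equal number, the FPKM summed by protein name ran from 37.3 for L39 to 7468 for S25, with a median of 1446. These sums leave out genes described in other words, such as DCAR_005593 with a ribosomal L37ae domain at a mean of 1315 FPKM. The range therefore depends in part on naming. Of 67 names with at least 2 genes, 55 had 1 gene that held over 50% of the name's FPKM. Many of these names have exactly 2 genes, where the higher one holds over 50% by construction, so that count says little. Names with 3 genes went both ways, the first gene holding 80.2% for L18 and 37.6% for S4. S25 was 88.4% DCAR_001565, and L38 was 73.6% DCAR_026527.

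Families were next gathered by words in the protein descriptions, 57 in all, to see which members lead. In the median family the first member held 24.7% of the family's FPKM, and in 7 families it held over 50%. The ranges of the first and second members did not overlap in 41 families and overlapped in 16, and in 45 families the first member was above the second in every sample. The lists rest on description words, so some hold a gene of another function, which is named where it is printed. Member counts are to be read beside all 35073 genes, of which 56.5% reached 1 FPKM and 9268 were at 0. RSEM, the submitters' program, divides reads among near-identical genes, so members of young gene families are the least certain.

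Class III peroxidases were the most concentrated. Of 88 genes, 25 reached 1 FPKM and 27 were at 0, and peroxidase 42 held 91.9 ± 2.95% of the family. The second, peroxidase 72 (DCAR_017316), measured 125, 248 and 123 FPKM, and peroxidase 42 stood 31.1 times higher. Metallothioneins came next, with 88.2 ± 1.31% in DCAR_005972 and 10.9% in the type 2 gene DCAR_018908 at 1886, 1559 and 1843 FPKM.

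Aquaporins held 1.81 ± 0.146% of total FPKM over 45 genes, 26 of them at 1 FPKM or above. TIP1-1 held 60.9 ± 1.40% of it. By class, the TIP channels of the vacuole membrane held 72.7% and the PIP channels of the plasma membrane 25.3%. Among the TIP genes, TIP2-2 (DCAR_027767) measured 1080, 2120 and 1270 FPKM and TIP2-1 (DCAR_007576) measured 883, 1248 and 819 FPKM, both highest in replicate 2. The PIP pool was more even, its first gene PIP1-4 (DCAR_027550) holding 36.5% at 1950, 2074 and 1802 FPKM. The NIP class rested on NIP5-1 (DCAR_029982), a boric acid channel in Arabidopsis, with 189 ± 13.8 FPKM and 93.8% of its class.

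Single genes led several other families. Actin-7 (DCAR_001426), of the microfilament, held 74.5 ± 3.60% of 10 actin genes at 2102, 1247 and 1854 FPKM, lowest in replicate 2. In the list for methionine and ethylene, S-adenosylmethionine synthase DCAR_012308 held 78.4 ± 1.23%, whereas the first ACC oxidase (DCAR_019257), the last enzyme of ethylene synthesis, stood at 46.0 ± 4.70 FPKM. ABC transporter F family member 1 (DCAR_028348) held 53.2 ± 3.01% of 180 ABC genes at 1896, 1718 and 2011 FPKM. Members of the F class lack membrane domains and are not transporters in the usual sense. Genes described as true transporters of classes B, C and G summed to means of 308, 196 and 211 FPKM. A further 88 of the 180 genes, with a summed mean of 313 FPKM, were not placed in a class by their description. Germin-like proteins were nearly silent, with 2 of 18 genes at 1 FPKM or above, and the first of these (DCAR_022334) is described first as a psbP-like protein.

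The receptor-like kinase, proteasome and glycolysis lists were more evenly spread. The first of 429 receptor-like kinases held 3.22 ± 0.386%, and 38 genes made up 50% of the family. For the proteasome the first gene held 6.24 ± 0.188%, with 13 genes for 50%, and for glycolysis 7.06 ± 0.290%, with 11 genes for 50%. The glycolytic leaders were cytosolic glyceraldehyde-3-phosphate dehydrogenase (DCAR_021612) at 388, 400 and 358 FPKM and cytosolic phosphoglycerate kinase (DCAR_009652) at 333, 293 and 296 FPKM. In the 14-3-3 family of phosphoprotein binders, DCAR_021021 at 695 ± 28.1 FPKM and DCAR_025919 at 682 ± 84.6 FPKM overlapped, the first being the higher in 1 of 3 samples. Ubiquitin genes summed to 2.67 ± 0.142% of total FPKM. Of that, 47.0% was in 45 genes described as conjugating E2 enzymes and 18.9% in 227 described as E3 ligases. A further 181 genes, with 24.2%, were not placed in a class by their description, so the split depends in part on naming.

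**Figure D4:**
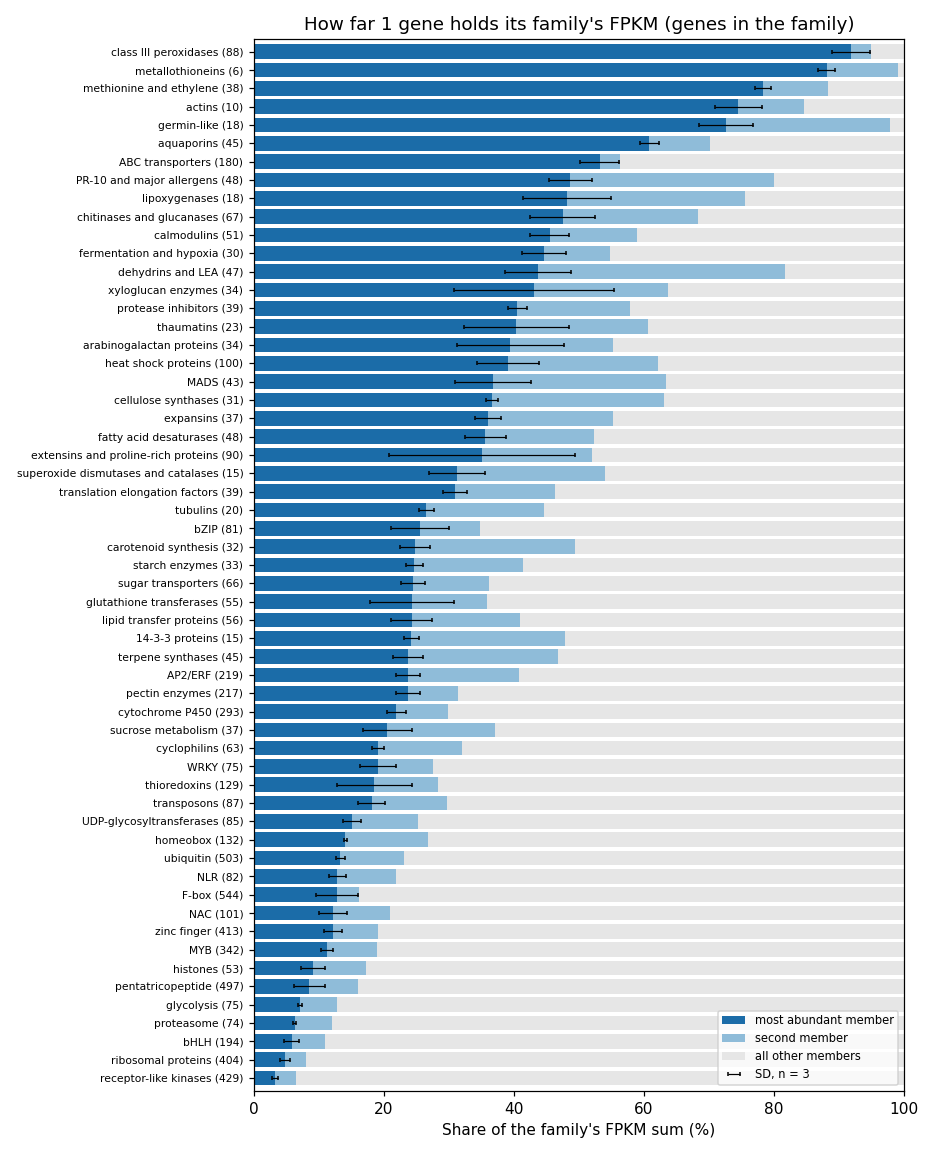
Share of each family's FPKM sum (%) held by its most abundant member (dark), its second member (light) and all others (grey), for 57 families with the number of genes in brackets; black lines are SD of the first member's share over 3 WT samples. Class III peroxidases (91.9%) and receptor-like kinases (3.22%) mark the ends of the range.

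Genes for carotenoids, the plastid pigments of orange carrots, were led by the first steps of the pathway. Of 32 genes of synthesis and cleavage, 18 reached 1 FPKM, and they summed to 721, 781 and 754 FPKM. Phytoene synthase 2 (DCAR_010057), the entry enzyme, measured 163, 212 and 185 FPKM. Phytoene desaturase (DCAR_016085), the next step, measured 185, 187 and 184 FPKM, a CV of 0.761%. The ranges of the 2 genes overlapped, with the synthase the higher in 2 of 3 samples, and they held 24.8 ± 2.27% and 24.7% of the list.

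Later carotenoid steps were lower. Zeta-carotene desaturase (DCAR_025321) measured 31.3, 31.9 and 30.6 FPKM and carotenoid isomerase (DCAR_013459) 34.9, 47.7 and 43.6 FPKM. Lycopene beta-cyclase (DCAR_020544), which closes the rings of beta-carotene, measured 11.5, 11.5 and 11.1 FPKM, and lycopene epsilon-cyclase (DCAR_028276), of the lutein branch, 8.80, 13.3 and 9.16 FPKM. The other phytoene synthase genes were far below the first, DCAR_023043 at 7.92, 11.6 and 7.09 FPKM and DCAR_024333 at 0, 0.05 and 0 FPKM. Of the enzymes that break carotenoids down, cleavage dioxygenase 1 (DCAR_022385) measured 76.3, 71.2 and 79.2 FPKM, while dioxygenases 4, 7 and 8 stayed below 1 FPKM in every sample. Zeaxanthin epoxidase (DCAR_025735) stood at 45.3, 43.9 and 46.1 FPKM, and beta-carotene 3-hydroxylase (DCAR_020269) at 27.8, 23.4 and 28.2 FPKM, both enzymes of the xanthophyll branch. The remaining 8 detected members were phytoene dehydrogenase DCAR_000109, prolycopene isomerase DCAR_001700, DCAR_022896, 15-cis-zeta-carotene isomerase DCAR_023800, hydroxylase DCAR_009395, desaturase DCAR_006616, D27 isomerase DCAR_002887 and the cyclase-domain gene DCAR_019750, with values from 2.02 to 52.7 FPKM. Of the 14 members with a mean below 1 FPKM, 3 were at 0.

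Genes of sucrose metabolism had low levels. Of 37 genes, 22 reached 1 FPKM and none had a mean of 100 FPKM, and they summed to 428, 537 and 410 FPKM. Sucrose synthase DCAR_028527, which splits sucrose with UDP, measured 85.0, 132 and 69.8 FPKM, and the acid invertase DCAR_008466, which hydrolyses it, 59.5, 103 and 68.9 FPKM; both were highest in replicate 2, and though their ranges overlapped the synthase was above the invertase in 3 of 3 samples. Sucrose-phosphate synthase DCAR_009328, which makes sucrose, measured 44.2, 48.1 and 45.2 FPKM. By class, sucrose synthases held 38.1% of the list, acid and cell wall invertases 26.2%, alkaline or neutral invertases 24.0% and sucrose-phosphate synthases 10.4%. The neutral invertases were even, their first gene DCAR_006155 holding 21.5% of them at 21.0, 28.4 and 21.4 FPKM. Of the sucrose synthases, DCAR_031432 measured 38.2, 38.4 and 38.0 FPKM and DCAR_002856 measured 43.2, 16.1 and 26.4 FPKM, lowest in replicate 2. The cell wall invertase DCAR_003134 measured 16.1, 17.0 and 15.8 FPKM, and of 4 invertase inhibitor genes only DCAR_025024 was detected, at 3.49, 9.86 and 5.45 FPKM. Of the 15 members below 1 FPKM, 4 were at 0.

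Sugar transport and starch genes had a few clear leaders. A sucrose transport protein (DCAR_014266) measured 179, 188 and 214 FPKM and was the one sugar transporter of 66 above 100 FPKM. Of 29 SWEET genes, which carry sugar across membranes in both directions, 14 were at 0, against 9268 of all 35073 genes. SWEET5 (DCAR_009783) led the SWEET genes at 87.5, 94.3 and 94.9 FPKM. Among starch enzymes, 28 of 33 reached 1 FPKM. The small subunit of ADP-glucose pyrophosphorylase (DCAR_013816), the first committed step, measured 396, 391 and 397 FPKM, the large subunit DCAR_028975 48.2, 93.9 and 57.6 FPKM. Beta-amylase 1 (DCAR_024303), which breaks starch down, measured 266, 257 and 278 FPKM, and granule-bound starch synthase (DCAR_008624) 151, 219 and 197 FPKM.

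Wall-building and wall-loosening genes each had a few abundant members. Among cellulose synthases, subunits 3 (DCAR_029673) and 1 (DCAR_001518), which act in primary walls in Arabidopsis, measured 370, 372 and 383 FPKM and 273, 258 and 285 FPKM. No gene of the list was named as subunit 4, 7 or 8, the secondary wall set of Arabidopsis. Other genes, described only as cellulose synthase with no subunit number, had means below 1 FPKM, so absence of that set was not shown. Expansins, which loosen walls, were led by DCAR_027423 at 882, 1054 and 1195 FPKM and by expansin-B3 (DCAR_019186) at 495, 585 and 588 FPKM, with 15 of 37 genes at 1 FPKM or above. Xyloglucan endotransglucosylase 9 (DCAR_009699), which cuts and rejoins xyloglucan, measured 1988, 985 and 1259 FPKM, whereas DCAR_029685 of the same family measured 354, 1123 and 504 FPKM, so replicate 2 was lowest for one and highest for the other.

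Structural wall proteins showed the same contrast. The extensin-related protein DCAR_024246 measured 1623, 1098 and 2205 FPKM, lowest in replicate 2, and the repetitive proline-rich protein DCAR_009324 measured 425, 1857 and 366 FPKM, highest in replicate 2. Arabinogalactan protein 5 (DCAR_012881) measured 1480, 1065 and 1398 FPKM, and protein 9 (DCAR_021970) 518, 585 and 496 FPKM. Of 217 pectin enzyme genes, 104 were at 0 and 63 (29.0%) reached 1 FPKM. Of all 35073 genes, 9268 were at 0 and 56.5% reached 1 FPKM. The pectin list was led by pectate lyase 18 (DCAR_016430), which cuts pectin, at 414, 603 and 510 FPKM. A polygalacturonase (DCAR_005782) stood second at 165, 151 and 177 FPKM.

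The lists of PR-10 proteins, chitinases and glucanases, protease inhibitors and redox enzymes had high leaders. The PR-10 and allergen list held 0.755 ± 0.0344% of total FPKM, of which novel322 and DCAR_027034 held 48.7% and 31.4%. Chitinase-like protein 1 had 2 IDs, DCAR_005547 at 1617, 1372 and 1439 FPKM and DCAR_005546 at 639, 670 and 630 FPKM; both IDs matched a single gene of the RefSeq carrot annotation (assembly DH1 version 3.0) and are uncertain as separate genes. Cysteine proteinase inhibitor B (DCAR_011872) measured 1704, 1051 and 1408 FPKM. Catalase DCAR_013924, which breaks down hydrogen peroxide, measured 1209, 612 and 916 FPKM, and the first superoxide dismutase (DCAR_030571) 803, 501 and 667 FPKM, both lowest in replicate 2. A thioredoxin-like protein, CXXS1 (DCAR_004175), measured 1667, 675 and 1151 FPKM in the same order.

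Of the lists for specialised metabolism, cytochrome P450 and terpene synthase genes were mostly below 1 FPKM, a level that 56.5% of all genes reached. Of 293 cytochrome P450 genes, 113 were at 0 and 82 reached 1 FPKM. The first, a geraniol 8-hydroxylase-like gene (novel2837), measured 339, 280 and 317 FPKM, and the second, DCAR_024263 of the CYP72A group, 108, 112 and 119 FPKM. Terpene synthases, which make carrot aroma compounds, were led by terpene synthase 10 (DCAR_013297) at 60.6, 111 and 64.8 FPKM, and 18 of 45 reached 1 FPKM; the second gene caught by that list, DCAR_002831, is described first as a mitochondrial zinc maintenance protein. FAD2-like desaturases, the group that includes enzymes of carrot polyacetylene synthesis, were led by DCAR_019845 at 918, 683 and 859 FPKM and DCAR_013547 at 442, 275 and 441 FPKM. In the whole list of fatty acid desaturases, 34 of 48 genes (70.8%) reached 1 FPKM.

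Of the AP2/ERF, bZIP, homeobox, MYB, MADS, WRKY, bHLH and NAC lists of transcription factors, the AP2/ERF list had the gene of highest mean. RAP2-13 (DCAR_014234) measured 1115, 1010 and 1237 FPKM, and RAP2-3 (DCAR_023305), of the group that acts under low oxygen in Arabidopsis, 1086, 536 and 840 FPKM; their ranges overlapped, and RAP2-13 was the higher in 3 of 3 samples. The first bZIP gene, bZIP53 (DCAR_003659), measured 573, 966 and 748 FPKM, and the first homeobox gene, HAT5 (DCAR_026075), 661, 604 and 632 FPKM. The MYB list was led by MYB1R1 (DCAR_004992) at 681, 547 and 698 FPKM. The MADS list was led by the SOC1-like gene DCAR_006890, whose Arabidopsis relative promotes flowering, at 569, 330 and 549 FPKM, and by JOINTLESS (DCAR_014188) at 410, 292 and 335 FPKM.

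The first genes of the WRKY, bHLH and NAC lists were lower. The first WRKY gene (DCAR_030029) stood at 191 ± 46.6 FPKM, the first bHLH gene (DCAR_010463) at 178 ± 31.8 FPKM and the first NAC gene (DCAR_024974) at 126 ± 26.5 FPKM. At 1 FPKM or above were 163 of 342 MYB genes, 95 of 194 bHLH genes, 94 of 219 AP2/ERF genes, 38 of 75 WRKY genes, 37 of 101 NAC genes and 16 of 43 MADS genes. All these shares, from 36.6% for NAC to 50.7% for WRKY, lay below the 56.5% of all genes. GID2 (DCAR_012798), the F-box protein of gibberellin signalling, measured 1409, 779 and 989 FPKM and led the 544 F-box genes.

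Genes of translation, folding and the cytoskeleton had 1 to 3 leading members. Elongation factor 1-delta (DCAR_007484) measured 2163, 1662 and 2070 FPKM, and elongation factor 1-beta (DCAR_018945) 1097, 817 and 1010 FPKM; both help recharge the factor that brings aminoacyl-tRNA to the ribosome. The cyclophilins, which turn proline bonds in folding proteins, were led by DCAR_013872 at 1309, 1059 and 1113 FPKM. Both Hsp70 genes led the heat shock list, DCAR_014843 at 2639, 1890 and 2417 FPKM and DCAR_020851 at 1149, 1496 and 1418 FPKM. Of the 100 genes in that list, 50 reached 1 FPKM, against 56.5% of all genes.

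Tubulins, the subunits of microtubules, held 17 detected genes of 20, led by tubulin alpha-2 (DCAR_021941) at 925, 1033 and 979 FPKM. Histones were even, the H3 gene DCAR_003470 and the H4 gene DCAR_014841 overlapping at 359 ± 69.5 and 321 ± 45.0 FPKM with H3 above H4 in 2 of 3 samples, and H2A and H4 genes held 31.1% and 28.6% of the list. Calmodulin (DCAR_009097), a calcium sensor, measured 575, 795 and 658 FPKM. The first gene caught by the fermentation list, alcohol dehydrogenase class 3 (DCAR_000552) at 581, 452 and 549 FPKM, is not the fermentative enzyme. The second, DCAR_013364, is described first by a Myb domain and had a mean of 120 FPKM. The fermentative alcohol dehydrogenase 1 (DCAR_027612) measured 111, 121 and 105 FPKM and pyruvate decarboxylase (DCAR_018682) 67.7, 91.8 and 65.8 FPKM.

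Lists without a gene at a mean of 100 FPKM included immune receptors and sugar-conjugating enzymes. NLR genes, the intracellular immune receptors, had 54 of 82 members (65.9%) at 1 FPKM or above, against 56.5% of all genes. None had a mean of 100 FPKM, and DCAR_004980 led at 54.5, 74.4 and 63.1 FPKM. UDP-glycosyltransferases, which attach sugars to small molecules, had 34 of 85 at that level of 1 FPKM, a smaller share than all genes. They were led by DCAR_009857 at 77.8, 66.2 and 71.8 FPKM. Lipoxygenases, which start oxylipin synthesis, were led by novel494 at 67.5, 103 and 74.0 FPKM. Retrotransposon genes did reach means above 100 FPKM and were led by novel879 at 212, 169 and 195 FPKM.

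The label of fleshy root was checked against lists of tissue markers. In a bulk sample, fewer cells of a type and less RNA per cell cannot be told apart. For comparison, 56.5% of all 35073 genes reached 1 FPKM and 9268 were at 0. The taproot list, of allergens, proline-rich wall proteins, sucrose enzymes and phytoene synthases, shares its genes with the families above and is not specific to roots. It summed to 12171, 13301 and 13024 FPKM, the highest of 9 lists, with 69 of 128 genes at 1 FPKM or above. It was also the list with the most genes, and novel322 at a mean of 4272 FPKM and DCAR_027034 at 2748 FPKM made up much of its sum, so its place among the lists says little about the tissue. The list for xylem and secondary walls was at or near 0: 0 of 25 genes reached 1 FPKM, 8 were at 0, and the highest value in any sample was 0.51 FPKM, for laccase DCAR_015652. Its members are laccases, which polymerise lignin, and COBRA-like protein 4 genes. CYP86 genes, which oxidise fatty acids for suberin and cutin, had 0 of 6 genes at 1 FPKM or above. The wider periderm and endodermis list, in contrast, had 26 of 63 genes at that level, with a highest value of 139 FPKM.

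The green tissue list summed to 11067, 7488 and 8806 FPKM, with 76 of 104 genes at 1 FPKM or above and no gene above 1432 FPKM. Phloem genes summed to 1396, 2231 and 948 FPKM, led by PHLOEM PROTEIN 2-LIKE A1 (novel558), a lectin-like sieve tube protein, at 407, 672 and 179 FPKM. Cambium genes were low, the 8 of them summing to 28.5, 43.0 and 18.8 FPKM. The receptor TDR (DCAR_018116) measured 6.90, 21.3 and 8.56 FPKM, and WOX4 (DCAR_019432), which acts downstream of it in Arabidopsis, 13.4, 10.1 and 5.53 FPKM.

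The remaining lists were low or rested on few genes. Periderm and endodermis genes summed to 486, 554 and 465 FPKM and root hair and epidermis genes to 184, 199 and 189 FPKM. Seed genes, storage proteins and oleosins, summed to 69.8, 51.7 and 64.8 FPKM, and 9 of 26 were at 0. The flower and pollen list summed to 3891, 4650 and 4046 FPKM, most of it pollen-specific protein C13 at 2704, 3562 and 2846 FPKM, while 22 of its 42 genes were at 0.

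**Figure D5:**
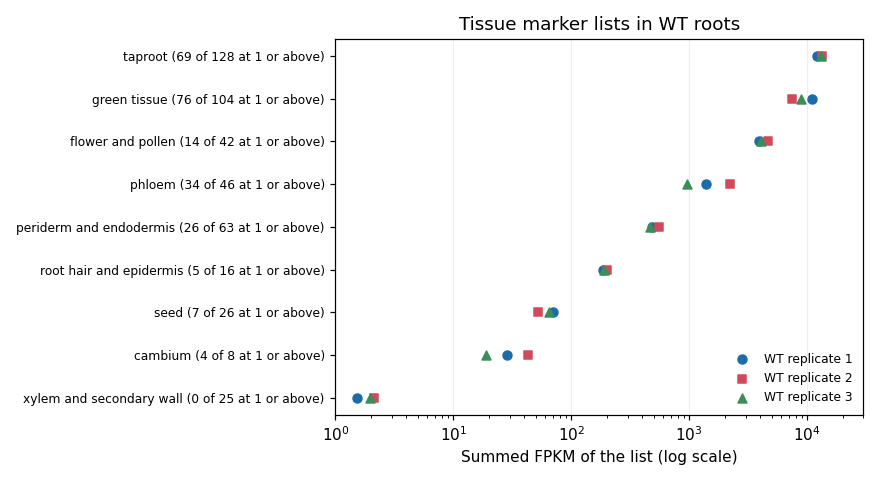
Summed FPKM (log scale) of 9 tissue marker lists in each of the 3 WT samples, with the number of genes at 1 FPKM or above in brackets. The taproot list is highest (12171 to 13301 FPKM) and the xylem and secondary wall list lowest, with no gene at 1 FPKM; replicate 2 is highest for phloem and lowest for green tissue.

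Variation among the 3 samples was mostly in replicate 2. Among 2143 genes with a mean of at least 100 FPKM, the median CV was 10.2%, 1047 genes were under 10% and 112 were over 30%. Of genes with a mean of at least 10 FPKM, 152 were more than 2-fold higher in replicate 2 than in both others, against 16 for replicate 1 and 14 for replicate 3. More than 2-fold lower than both others were 25, 24 and 33 genes in replicates 1, 2 and 3. Of the 20 genes with the highest CV, 19 were highest in replicate 2.

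The most variable gene was the proline-rich wall protein DCAR_009324, with a CV of 95.7%. Next came DCAR_031159, described as PEX13, at 142, 482 and 80.9 FPKM, a glycine-rich wall protein (novel3806) at 206, 615 and 90.9 FPKM, the aspartyl protease AED3 (DCAR_031837) at 93.5, 368 and 82.7 FPKM, and DCAR_011454, with no description, at 53.9, 216 and 55.2 FPKM. All 5 were highest in replicate 2. Lipid-transfer protein DIR1 (DCAR_018625), which acts in systemic resistance in Arabidopsis, measured 228, 707 and 171 FPKM, and the lipid transfer list as a whole summed to 1570, 2909 and 1531 FPKM. In the same sample the phloem list was highest, with 20 of its 34 detected genes peaking there. Of all genes with a mean of at least 10 FPKM, 45.0% were highest in replicate 2 and 37.5% were lowest there. The green tissue list was lowest in the same sample, with 54 of 76 detected genes at their minimum. The part of these tissues in the spread was not tested.

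Of the 5 steadiest genes, 3 were ribosomal protein genes. DCAR_006202, with a ribosomal protein S17 domain, measured 595, 597 and 597 FPKM, a CV of 0.192%. Casein kinase 1-like protein 6 (DCAR_018498) measured 110, 109.5 and 110 FPKM, 60S protein L44 (DCAR_002583) 1031, 1030.4 and 1025 FPKM, and L17-2 (DCAR_007485) 322, 323 and 324 FPKM. Tubulin beta-1 chain (novel2710), a microtubule subunit, measured 138, 137 and 137 FPKM. With 3 samples, a small CV among 2143 genes is a description of these roots only.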

How the data were processed

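Messenger RNA from fleshy roots was made into libraries with the SMARTER mRNA-Seq kit and random hexamer priming, per the labels' protocols. The authors deposited FPKM values per gene; the submitters' processing notes name RSEM, with no version. Its aligner, build and annotation were not given in the sources used here. The table holds no coordinates and no read counts. The 3 WT columns were read with Python 3.11.15, pandas 2.3.3 and numpy 2.4.6, and figures were drawn with matplotlib 3.10.9. Columns of betanin-transgenic roots were not used. Each sample's FPKM were divided by their sum; that share is the same quantity as TPM. A gene counted as detected at a mean of at least 1 FPKM, and correlations used log2(FPKM + 1). Shares were checked on simulated data with known answers.

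The members, families and marker lists were chosen with earlier results of these data known. Families and markers were found by words in the UniProt and NR descriptions, and by Pfam domain only where neither was informative. Word patterns for 4 families (metallothionein, AP2, dehydrin, germin) were tightened or widened after values were seen. Named genes were the 30 highest by mean, the leading 2 of each of the 12 largest pathways and of each family, the leading and silent members of each marker list, the 5 most and 5 least variable genes above 100 FPKM, and the members of the carotenoid and sucrose lists; the text names those its descriptions turn on, and a few further genes chosen after their values were seen. Alternatives changed the filter, ranking, denominator, pseudocount, gene IDs and search words, or left out 1 replicate. RefSeq carrot genes served for names only.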

Additional observations from a re-analysis of the deposited data

How the results depend on the processing

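No paired analysis was possible because only 1 group of samples is used, and for genes compared within the same samples 3 pairs allow no two-sided exact p below 0.25. The count of detected genes was 25805 with any value above 0 and 18830 with 1 FPKM in every sample. Without numbered IDs, the first 10, 100 and 1000 genes held 6.95%, 20.8% and 53.3% of total FPKM, the Ribosome pathway held 13.1% and the median share of a family's first member was 27.4%; the total is smaller there by construction. Ribosome held 12.3% with genes divided among their pathways, 12.2% without the 10 most abundant genes and 33.4% of the FPKM of genes with a pathway, and Metabolic pathways held 3.66% with genes divided among their pathways. The median family share was 28.9% with words in the NR description only; the cause was not tested. The mean correlation between samples was 0.973 as reported, 0.952 with a pseudocount of 0.1, 0.982 with 5 and 0.989 over all genes. Leaving out replicate 1, 2 or 3 moved no share by more than 1 SD, which the mean of 3 values allows by construction and is no sign of stability. Unknown depth limits what can be said of genes near 0.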

Other observations

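Genes whose RefSeq protein belongs to an organelle genome numbered 92, and 49 of them reached 1 FPKM. They held 0.430%, 0.473% and 0.498% of total FPKM in replicates 1, 2 and 3. The highest was ribosomal protein S19 (DCAR_032526), a small subunit protein, at 2058, 2031 and 2208 FPKM, followed by L16 (DCAR_032523) at 622, 645 and 690 FPKM. The ribosomal protein L2 IDs DCAR_032527 and DCAR_032549 had the same values, 440, 502 and 515 FPKM, and could not be told apart. In all, 152 genes of at least 1 FPKM had the same values in the 3 samples as another gene.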
